A study of Sus scrofa with 6 samples.

Results

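The genes described here encode the machinery that brings secreted proteins into the endoplasmic reticulum (ER), folds and modifies them there, and moves them on towards the Golgi. Membership went by gene symbol alone, under a rule that was chosen with earlier results of these data known. A gene was a member if the single symbol of its probe set began with SEC11, SEC13, SEC22, SEC23, SEC24, SEC31, SEC61, SEC62, SEC63, SSR, SPCS, PDIA, P4HA, PLOD, TMED, COPB, COPG or COPZ, or with SRP and a digit. P4HB, HSPA5, HSP90B1, CALR, CANX, SERPINH1, COPA and COPE were also on the list of symbols. This gave 52 of the 6765 genes with a single symbol. Of these, 50 passed the filter on low signals and are the members counted below, among 5598 genes that passed. COPB2, a COPI coat subunit, was above the floor of 36.1 on 0 arrays, and SPCS2, a signal peptidase subunit, on 1, so neither was compared. SEC31B, a COPII coat subunit, lay above the floor on 3 arrays and had signals of 6.34 to 64.1. SEC23IP, a phospholipase-related protein that binds SEC23, entered through its prefix. P4HA1, P4HA3, P4HB, PLOD2 and COPE were not analysed here.

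RNA came from pigs (Sus scrofa), with 1 array for each of 6 conditions. Cartilage of the growth plate, which lengthens growing bones, and cartilage of the joint surface were each measured as native tissue and as chondrocytes grown after collagenase digestion until day 10 or day 20. The cultures had no added differentiation factors and shared 5% oxygen, 5% carbon dioxide, 37 °C and medium with serum. Breed, age, and whether arrays shared animals or pools are not given in the labels. There were no replicates, so a difference between a pair of arrays has no replicate check. A p-value from limma weighs a difference by the misfit left once tissue and stage effects are added together, not by a spread between replicates. The misfit of each gene is drawn towards a trend with signal over all genes, also in the SEs given below.

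A protein made for export begins with a signal peptide, which the signal recognition particle binds as it leaves the ribosome. The chain is threaded through the SEC61 channel, loses its signal peptide to signal peptidase, and folds with the help of chaperones and disulphide isomerases. Collagen needs further steps, because its prolines and lysines are hydroxylated before the chains wind into a triple helix that the chaperone HSP47 then escorts. COPII-coated vesicles carry cargo out of the ER, COPI-coated vesicles return escaped residents, and p24 proteins (TMED) act as cargo adaptors between them. Chondrocytes export large amounts of collagen and proteoglycan, and defects of COPII or of collagen folding are known causes of skeletal disease.

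By the probe set used for each gene, more members than genes in general stayed within 2-fold. Over all 6 arrays 34 of 50 members (68%) stayed within 2-fold, against 43.3% of all genes, and the median ratio of highest to lowest array was 1.71 for members and 2.15 for all genes. Genes of high signal vary less in general, so the same count was taken over genes with a mean signal of at least 1024. There 32 of 43 members (74.4%) stayed within 2-fold, against 58.7% of all such genes. That limit on signal was chosen after the data were seen, and it does not match signals above it. There 21 of the 43 members and 560 of all 1726 genes lay in the top decile of signal. The part of signal in the remaining difference was not tested. Under the other normalizations, floors and filters and with averaged probe sets, 62% to 69.4% of the members and 38.8% to 52.5% of all genes stayed within 2-fold. This rests on the probe set of highest signal. Of 13 members that stayed within 2-fold by the set used and had another set above the floor on all 6 arrays, 10 spanned 2-fold or more by at least 1 other set. Over the 4 cultured arrays 44 of 50 members (88%) stayed within 2-fold, against 69.8% of all genes. TMED2, a p24 cargo adaptor, had the narrowest range, a ratio of 1.11. Its signals at the native, day 10 and day 20 stages were 10758, 9739 and 9821 for growth plate and 10789, 10416 and 10574 for articular arrays. Signals below keep that order of stages, growth plate first.

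**Figure D1:**
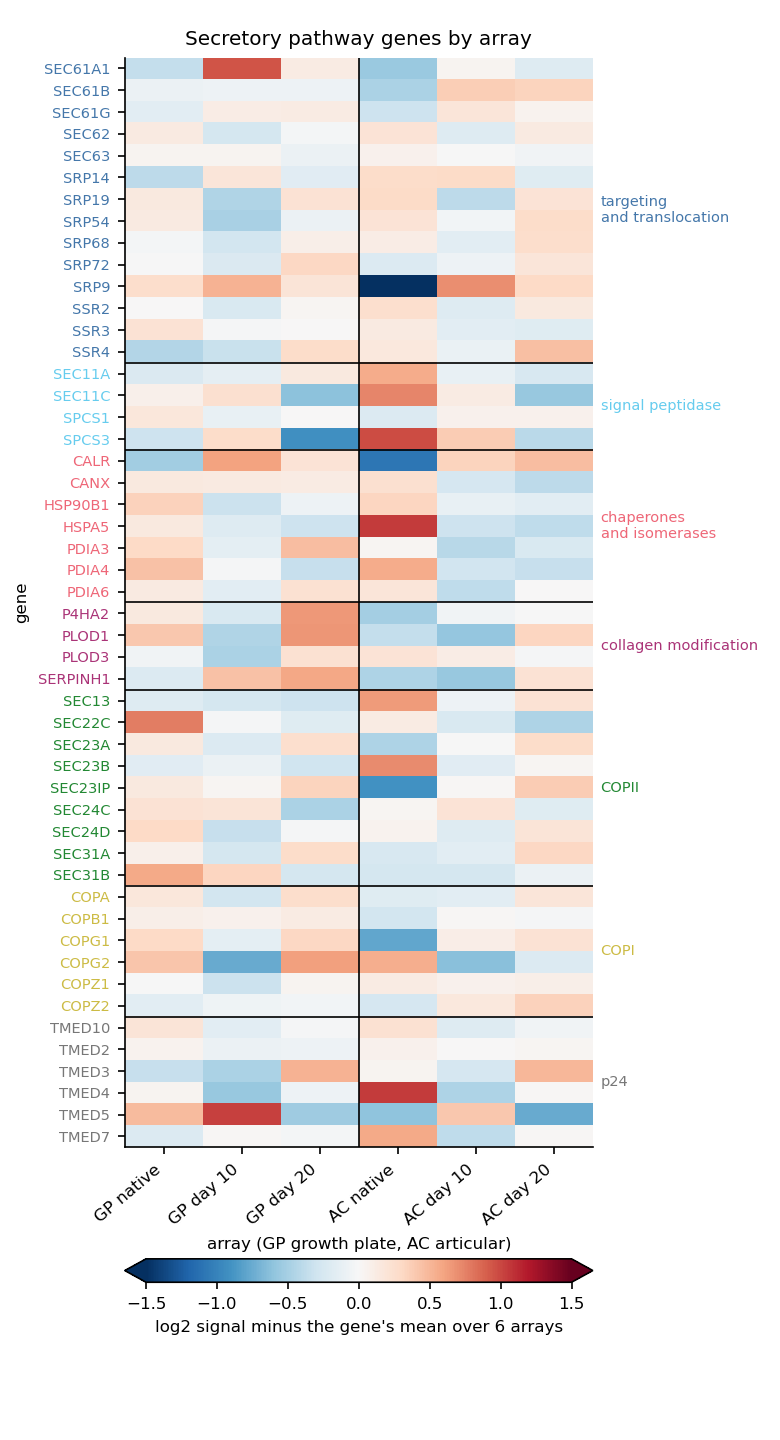
Colour shows the log2 signal of each of the 50 members on each array, minus the gene's mean over the 6 arrays, with members grouped by role (GP, growth plate; AC, articular). Most rows are pale, 34 of 50 spanning less than 2-fold, and the strongest colours are in SRP9, CALR, HSPA5, SPCS3 and TMED4 on the native articular array, TMED5 and SEC61A1 on the day 10 growth plate array.

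No member was called in any of the 3 comparisons that the model allowed, where a call needed a Benjamini-Hochberg adjusted p under 0.05 and at least 2-fold. For culture minus native tissue, the share of all genes called by limma was also 0%, with 8 of 50 members (16%) at an unadjusted p under 0.05 against 19.3% of all genes. For growth plate minus articular, 0.0536% of all genes were called, and 2 of 50 members (4%) had an unadjusted p under 0.05 against 10.7%. For day 20 minus day 10 the share called was 0% again, and 9 of 50 members (18%) had an unadjusted p under 0.05 against 14.6%. The smallest adjusted p of a member, by limma, was 0.143, 0.450 and 0.194 in these comparisons. The members' median log2 differences were -0.11, 0.0021 and 0.13, where all genes had 0.056, -0.040 and -0.024. The members' shares at an unadjusted p thus lay near or under those of all genes.

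Pairs of single arrays show where the larger differences lay. Between the native tissues 4 members (8%) were at least 2-fold higher in growth plate, against 12.9% of all genes, and 1 (2%) was at least 2-fold lower, against 7.88%. At day 10 of culture, 1 was higher (3.41% of all genes) and 0 lower (3.88%). At day 20, 0 were higher (2.84%) and 0 lower (4.04%). The members' median log2 difference between the tissues was 0.0079 in native cartilage, -0.072 at day 10 and -0.0081 at day 20, and no member was 2-fold apart between the tissues at more than 1 stage.

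From native tissue to day 10, 2 members were at least 2-fold higher in growth plate chondrocytes (7.41% of all genes) and 1 was lower (6.86%). In articular chondrocytes 3 were higher (16%) and 3 lower (9.56%). From day 10 to day 20, 2 members were higher (6.65%) and 2 lower (7.04%) in growth plate cultures, and 0 were higher (5.75%) and 1 lower (5.56%) in articular cultures. The members' median log2 differences were -0.23 in both tissues from native to day 10, and 0.14 in growth plate and 0.13 in articular cultures from day 10 to day 20. All genes had medians of 0.026 and 0.046 in the first step and of -0.025 and 0 in the next. Day 10 arrays enter both steps with opposite signs, so these medians are not independent.

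Differences of any size with the same sign in both tissues were counted next. Between native tissue and day 10, 24 of 50 members (48%) had a lower value in both tissues, against 27.8% of all genes. Between day 10 and day 20, 26 of 50 (52%) had a higher value in both, against 33%. These counts share the day 10 arrays. They were not matched for signal, whose median was 2952 for members and 465 for all genes. A pair of signals both under the floor gives no difference and counts in neither direction. After quantile normalization the counts were 19 of 50 members against 29.3% of all genes and 21 of 50 against 32.8%. After median centring they were 28 of 50 against 31.8% and 27 of 50 against 35%, so the members' share stayed the larger one. At least 2-fold in both tissues, 1 member, CALR, was higher at day 10 than in native tissue (3.2% of all genes) and 1, COPG2, was lower (2.54%). At day 20 against day 10, 0 were higher (2.48%) and 1, TMED5, was lower (2.86%). With a limit of 1.5-fold, chosen after the data were seen, CALR and SEC61A1 were higher at day 10 (9.5% of all genes) and COPG2, SRP19 and TMED4 were lower (7.63%). By the same limit PLOD1, SRP19 and TMED3 were higher at day 20 than at day 10 (7.4%), and SEC11C, SPCS3 and TMED5 were lower (8.68%).

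**Figure D2:**
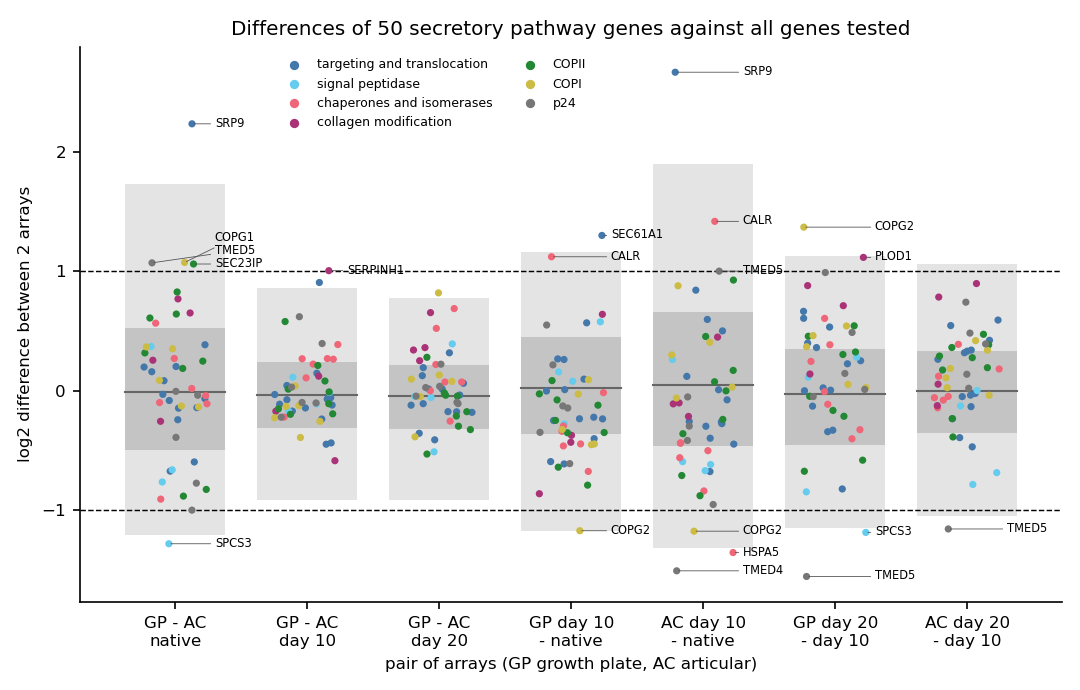
Each point is the log2 difference of 1 of the 50 members between the 2 arrays named under the column, coloured by role. The line is the median of all 5598 genes, the dark box spans their 25th to 75th percentile and the pale box their 5th to 95th, and dashed lines mark 2-fold. Members outside the dashed lines are named, with SRP9 at 2.24 between native tissues and at 2.67 between articular day 10 and native tissue.

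The native articular array stood apart from the rest, and several of the largest member differences rest on it. Its mean correlation with the other arrays across genes was 0.890, where the other arrays had 0.930 to 0.939. It held the highest signal of 17 members and the lowest of 12, and for all genes it held 27.5% of the highest and 28.4% of the lowest. Its ratio of 3' to 5' control probe sets, a measure of RNA quality, was 4.28 for actin (3.27 to 8.75 over all arrays), 1.52 for GAPDH (0.995 to 1.52) and 1.07 for EF1A (1.07 to 1.51). The highest actin and EF1A ratios, 8.75 and 1.51, were those of the day 20 articular array. That array enters the day 20 minus day 10 differences, and the part of its RNA quality in them was not tested. Median centring moved the native articular array by 0.19 on the log2 scale, against -0.073 to 0.011 for the others, and quantile normalization moved it by 0.096. After median centring 1 member was at least 2-fold higher and 7 lower in native growth plate (9.42% and 14.4% of all genes), and 2 were higher and 6 lower at day 10 than in native articular cartilage (12.5% and 14.1%). After quantile normalization the counts in native tissue were 3 higher and 2 lower (10.2% and 10.2%). The split of members between higher and lower in native tissue therefore changed with the scaling.

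Genes of targeting and translocation, 14 members, comprised the signal recognition particle (SRP), the SEC61 channel with its partners SEC62 and SEC63, and the translocon-associated SSR proteins. SRP9, which with SRP14 forms the part of the particle that pauses translation, had signals of 2531, 3036 and 2416 for growth plate and 537, 3415 and 2603 for articular arrays. The native articular array alone was low, and the other 5 arrays lay within 1.5-fold of one another. Native growth plate exceeded native articular cartilage 4.71-fold in SRP9, which was also 6.36-fold higher in articular cultures at day 10 than in native tissue, the largest difference of any member. Its log2 difference for culture minus native was 1.29 ± 0.52 (SE), with an unadjusted p of 0.0507 in limma. SRP14, its partner, did not share this, at 2557, 3795 and 2994 against 4075, 4101 and 2963.

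SEC61A1, the pore subunit of the channel, had signals of 1261, 3109 and 1759 for growth plate and 1095, 1657 and 1410.4 for articular arrays. It was highest at day 10 in both tissues, 2.47-fold above native in growth plate and 1.51-fold in articular chondrocytes. Its log2 difference for culture minus native was 0.69 ± 0.22 (limma unadjusted p = 0.0232, adjusted p = 0.191). This rests on 1 of 3 probe sets, since the other two, of lower signal, had log2 differences of -0.049 and -0.12 between growth plate day 10 and native tissue. The small channel subunits SEC61B and SEC61G were both lowest in native articular cartilage, at 3746 and 2969, against 4896 to 6721 and 3318 to 4206 on the other arrays.

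SRP19, which binds the RNA of the particle, was lowest at day 10 in both tissues, at 2101, 1393 and 2211 for growth plate and 2316, 1449 and 2186 for articular arrays. Its day 20 minus day 10 difference was 0.63 ± 0.20 (limma unadjusted p = 0.0218, adjusted p = 0.282). Its second probe set, of lower signal, did not show this, at 149, 114 and 91.4 against 99.6, 112 and 132. From day 10 to day 20 in growth plate it had a log2 difference of -0.31, where the set used had 0.67. SSR4, a translocon-associated subunit, was highest at day 20 in each tissue, at 6214, 6653 and 10139 against 9389.5, 7835 and 11447, a day 20 minus day 10 difference of 0.58 ± 0.20 (limma adjusted p = 0.298). Over all 14 members of this role the median log2 difference was 0.011 for culture minus native and 0.14 for day 20 minus day 10, with 8 of the latter positive and 6 negative. By the sets used SRP54, SRP68, SRP72, SSR2, SSR3, SEC62, SEC63, SEC61G and SRP14 stayed within 1.7-fold over the 6 arrays.

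Signal peptidase was represented by SEC11A and SEC11C, its catalytic subunits, and by the accessory subunits SPCS1 and SPCS3. SPCS3, needed for catalysis, had signals of 1412, 2108 and 927 for growth plate and 3429.9, 2274 and 1321 for articular arrays. Native growth plate lay 2.43-fold under native articular cartilage, and the signal was lowest at day 20 in both tissues. From day 10 to day 20 it was 2.27-fold lower in growth plate and 1.72-fold lower in articular cultures, a log2 difference of -0.98 ± 0.32 (limma unadjusted p = 0.0228, adjusted p = 0.284). SEC11C had signals of 2979.8, 3327 and 1851 for growth plate and 4713, 3073 and 1912 for articular arrays. It was also lowest at day 20 in each tissue, with a day 20 minus day 10 difference of -0.77 ± 0.25 (limma adjusted p = 0.294) and a culture minus native difference of -0.61 ± 0.22 (limma adjusted p = 0.220).

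SEC11A and SPCS1 did not follow them. From day 10 to day 20 SEC11A went from 7355 to 8941 in growth plate and from 7428 to 6807 in articular cultures, and SPCS1 from 5284 to 5721 and from 5935 to 5948. The role's 4 members were therefore split from day 10 to day 20, with 2 log2 differences positive and 2 negative and a median of -0.35. After quantile normalization all 4 were negative.

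The general chaperones and disulphide isomerases, 7 members, were mostly lower in culture, averaged over its 2 days, than in native tissue. Of the 7, 6 had a negative log2 difference for culture minus native, with a median of -0.29. CALR alone was positive, and none was called. Over all 50 members 30 were negative. The split of the 7 was 6 and 1 after quantile normalization and after median centring too. PDIA6, another isomerase, had 9237, 7528 and 9839 against 9499, 6444 and 8443. At day 20 in growth plate PDIA6 and PDIA3 were above native tissue. HSPA5 (BiP), the ER's HSP70 and the main sensor-binding chaperone of the unfolded protein response, had signals of 11579.8, 9157 and 8472 for growth plate and 21710.0, 8492 and 8048 for articular arrays. Native articular cartilage was the highest array by 1.87-fold, and the 4 cultured arrays lay close together. Its culture minus native difference was -0.89 ± 0.25 (limma unadjusted p = 0.0134, adjusted p = 0.167).

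PDIA4, an isomerase that forms disulphide bonds, was lower in culture in both tissues, at 4022, 2921 and 2332 against 4335, 2424 and 2330.4. The 2 native arrays were alike and above all 4 cultured arrays, a difference of -0.75 ± 0.18 with the smallest adjusted p of any member, 0.143 by limma. HSP90B1 (GRP94), the ER's HSP90, behaved likewise, at 7565, 4739 and 5624 against 7462, 5518 and 5343, a difference of -0.50 ± 0.16 (limma unadjusted p = 0.0217, adjusted p = 0.190). Its second probe set gave -0.64 in growth plate and -0.57 in articular chondrocytes from native to day 10, where the one used gave -0.67 and -0.44. By the set used CANX, the membrane-bound lectin chaperone of glycoproteins, stayed level in growth plate at 5987, 5925 and 5899. It was lower in articular cultures, at 6408, 4528 and 4104. Its second probe set was not level in growth plate, at 5329, 5380 and 4322, and had 6766, 4662 and 3733 for articular arrays. PDIA3, the isomerase that works with the lectin chaperones, had 7539, 5540.0 and 8439 against 6247, 4609.6 and 5234, and lay higher in growth plate at all 3 stages (0.41 ± 0.16, limma unadjusted p = 0.0496, adjusted p = 0.464).

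CALR, the soluble lectin chaperone and calcium store of the ER, went the other way. Its signals were 262, 571 and 432 for growth plate and 177, 473 and 515 for articular arrays, so both native arrays lay below all 4 cultured ones. At day 10 it was 2.18-fold above native tissue in growth plate and 2.68-fold in articular chondrocytes. The culture minus native difference was 1.20 ± 0.30 (limma unadjusted p = 0.00725, adjusted p = 0.147).

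The members that modify and escort collagen were P4HA2, a catalytic subunit of prolyl 4-hydroxylase, the lysyl hydroxylases PLOD1 and PLOD3, and SERPINH1, which encodes HSP47. All 4 had a positive log2 difference for day 20 minus day 10 in the additive model, with a median of 0.47, as had 33 of all 50 members. All 4 were positive under both other scalings. Between tissues 3 of the 4 were positive for growth plate minus articular, with a median of 0.40, where 25 of all 50 members were positive. None was called in the fit to all 6 arrays.

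PLOD1 had signals of 2375, 1307 and 2837 for growth plate and 1392, 1200.3 and 2238 for articular arrays. Day 10 was the lowest array of each tissue and day 20 the highest. From day 10 to day 20 it was 2.17-fold higher in growth plate and 1.86-fold higher in articular cultures, a log2 difference of 1.01 ± 0.24 (limma unadjusted p = 0.00662, adjusted p = 0.2004). Its second probe set gave 0.64 and 0.92 for the same pairs. P4HA2 had signals of 5938, 4587 and 8453 against 3778, 5162 and 5367. This made it 1.84-fold higher at day 20 than at day 10 in growth plate but only 1.04-fold in articular cultures, and its second probe set gave log2 differences of 1.44 and 0.17.

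SERPINH1 showed the reverse arrangement, with signals of 2845, 4436 and 4893 for growth plate and 2381, 2208 and 3806 for articular arrays. It was above native tissue by day 10 in growth plate and by day 20 in articular cultures. At day 10 it was 2.01-fold higher in growth plate, the 1 member that passed 2-fold between the cultures. Its tissue difference was 0.54 ± 0.20 (limma unadjusted p = 0.0396, adjusted p = 0.450). PLOD3 had signals of 3623, 2688 and 4407 against 4323, 4032 and 3700.2, with day 20 the highest growth plate array and the lowest articular one. The difference between the tissues in these day 20 changes was not tested.

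**Figure D3:**
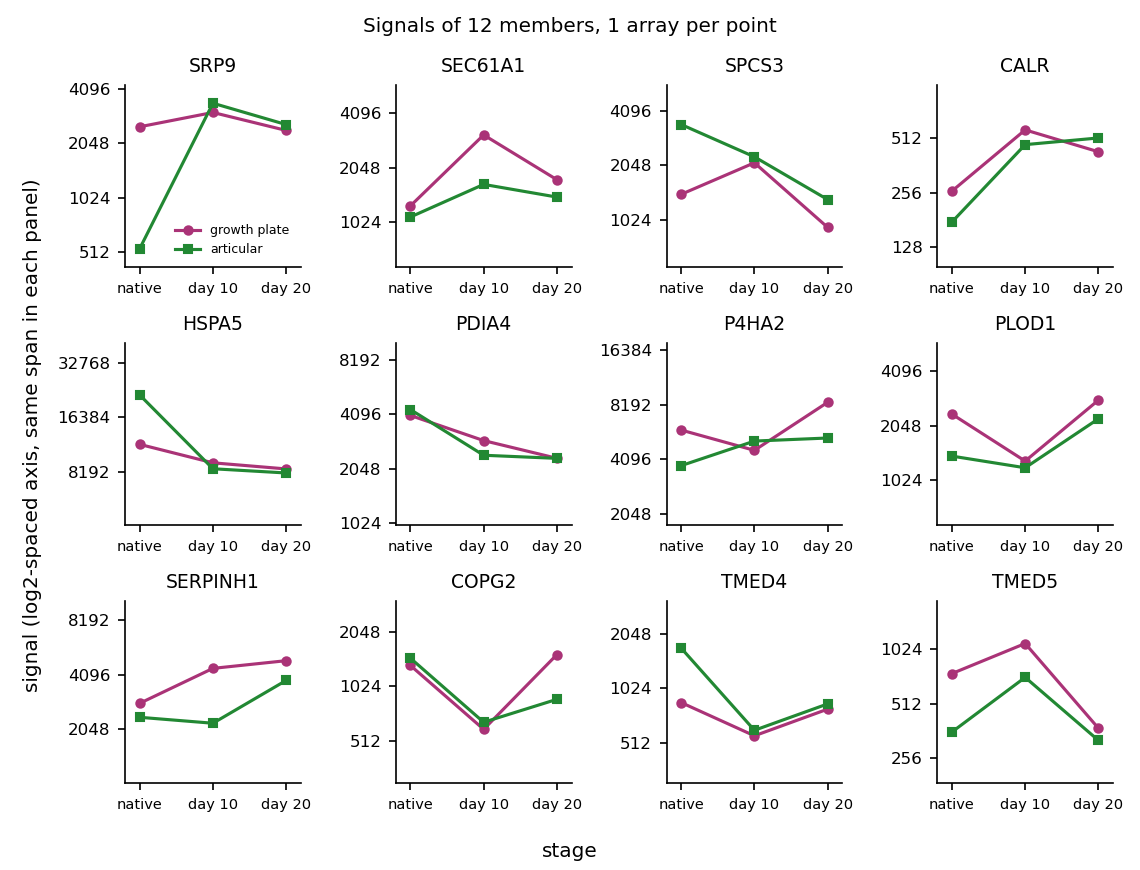
Signals of 12 members are plotted on a log2-spaced axis against stage, with 1 array per point, growth plate as circles and articular as squares, and the same span in every panel. SRP9 is low on the native articular array alone (537), HSPA5 is high on it (21710.0), and PLOD1, COPG2 and TMED4 are lowest at day 10 in both tissues.

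When limma was fitted to the 4 cultured arrays alone, which leaves 1 residual degree of freedom, 2 of 50 members (4%) were called for day 20 minus day 10, against 9.3% of all genes. They were PLOD1 (1.01, SE 0.19, adjusted p = 0.00286) and TMED5 (-1.36, SE 0.25, adjusted p = 0.00296). Both were called as well when either native array alone was left out, which draws on the same 4 cultured arrays and is no separate check. For culture minus native, leaving out native growth plate called 5 members, CALR, SRP9 and SEC23IP higher and HSPA5 and TMED4 lower, against 21% of all genes. Those calls rest on the native articular array as the only native sample, assumed to vary like the cultured ones. Leaving out native articular cartilage called 0 of 50, against 3.9%.

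The COPII group, 9 members, held subunits of the coat that buds vesicles from the ER, together with SEC23IP and SEC22C. SEC22C, placed with the coat by its prefix, spanned 2.35-fold over the arrays. SEC23IP had signals of 2674, 2461 and 3039 for growth plate and 1280.3, 2436 and 3133 for articular arrays. Only the native articular array was low, 2.09-fold below native growth plate, and culture minus native was 0.57 ± 0.28 (limma unadjusted p = 0.0889). SEC23A, an inner coat subunit in which mutations impair collagen export, was lowest on that array too, at 6629.5, 5197 and 7135 against 4343, 5955 and 7221. Its second probe set gave 1.34 as native log2 growth plate minus articular, where the one used gave 0.61. Its paralogue SEC23B was highest there, at 1339, 1422 and 1227 against 2468, 1343 and 1536. In native tissue the paralogues thus had opposite signs, since SEC23B had -0.88.

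By the sets used, several other COPII genes spanned less than 2-fold over the arrays. SEC13, an outer coat subunit, had 272, 258 and 250.3 against 483, 295 and 361. SEC31A, its outer coat partner, was highest at day 20 in both tissues, at 6465, 5076 and 7406 against 5187, 5469 and 7595 (day 20 minus day 10 of 0.51 ± 0.20, limma adjusted p = 0.329). SEC24C and SEC24D, which select cargo, differed in sign from day 10 to day 20. SEC24C went from 1759.8 to 1103 in growth plate and from 1770.4 to 1355 in articular cultures, and SEC24D from 3782 to 4739 and from 4199 to 5486.

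The COPI coat, which buds from the Golgi, had 6 members. All 6 had a positive log2 difference for day 20 minus day 10, as had 33 of all 50 members. The 6 had a median of 0.24, where all genes had -0.024, and a lowest value of 0.0085. The lowest was that of COPB1, a coat subunit whose second probe set had -0.72 in growth plate and -0.25 in articular cultures, so its sign rests on the set used. After quantile normalization 5 of the 6 were positive. COPG2, a gamma subunit, had signals of 1337, 594 and 1536 for growth plate and 1467, 649.6 and 869.5 for articular arrays. The native arrays were alike, and day 10 was the lowest array of each tissue, 2.25-fold and 2.26-fold under native. At day 20 it was 2.59-fold above day 10 in growth plate and 1.34-fold in articular cultures, a log2 difference of 0.90 ± 0.32 (limma unadjusted p = 0.0334, adjusted p = 0.308). Its paralogue COPG1 had 2782, 2036 and 2805 against 1320.2, 2430.1 and 2621, and its native growth plate signal exceeded the native articular one 2.11-fold. COPA and COPZ1 stayed within 1.5-fold over the 6 arrays, and so did COPB1 by the set used, while its second set spanned 2.62-fold.

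The p24 adaptors, 6 members, held both the steadiest gene, TMED2, and some of the most variable. TMED5 had signals of 749, 1098 and 374 for growth plate and 356, 714 and 320.3 for articular arrays. Day 10 was the highest array and day 20 the lowest in each tissue, a day 20 minus day 10 difference of -1.36 ± 0.32 with all 6 arrays (limma unadjusted p = 0.00611, adjusted p = 0.194). Its 3 other probe sets lay at or near the floor and carry no information on this. TMED3 was higher at day 20 in each tissue, at 1559.6, 1429 and 2840.3 against 2043, 1665 and 2786, a day 20 minus day 10 difference of 0.87 ± 0.22 (limma unadjusted p = 0.00769, adjusted p = 0.213).

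TMED4 had signals of 855, 560.0 and 786 for growth plate and 1708, 601 and 840.2 for articular arrays. Native articular cartilage was the highest array, 2.84-fold above day 10, and its culture minus native difference was -0.82 ± 0.28 (limma unadjusted p = 0.0278, adjusted p = 0.203). Its other probe sets had log2 differences of -0.79 and -1.07 between articular day 10 and native tissue, where the one used had -1.51. Between native tissues TMED4 had a log2 difference of -0.999, just short of 2-fold.

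Probe sets of a gene did not always give the same value, and 20 of the members had more than 1. The 10 members within 2-fold by the set used and not by another were CANX, COPB1, PDIA4, SEC23A, SEC31A, SEC63, SRP68, SRP72, TMED10 and TMED7. The SEC63 probe set used spanned 1.12-fold over the arrays, while its second, of lower signal, had 496, 241 and 273 against 864, 295 and 287. For TMED10 the set used had a log2 difference of -0.42 between articular day 10 and native tissue and the second had -1.62. For SRP72 the values of the same pair were 0.12 for the set used and 1.49 for the third. For TMED7 they were -0.95 for the set used, 0.11 for the second and -1.25 for the third. Probe sets agreed more closely for CANX, whose 2 brightest gave -0.50 and -0.54 for that pair.

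Genes of the unfolded protein response, which raises ER chaperones when folding falls behind, were set beside the members. The list held 22 genes, of which 13 were measured. Between native tissues their median log2 difference, growth plate minus articular, was -0.67, with 0 genes higher by 2-fold and 4 lower (12.9% and 7.88% of all genes). The 4 were PPP1R15A, SDF2L1, MANF and HYOU1. DNAJB9, DNAJC3, ASNS, DNAJB11 and ATF4 were lower by less than 2-fold, at -0.94 to -0.56. CRELD2, at -0.18, and XBP1, at -0.066, lay nearer to level, and DDIT3 (0.53) and CREB3L2 (0.14) went the other way. PPP1R15A, which restarts translation after stress, had native signals of 96.7 (growth plate) and 473 (articular), and the chaperone cofactor SDF2L1 had 69.8 and 216. MANF, a secreted ER stress protein, had 2615 and 6929.5, and HYOU1, a large HSP70-like chaperone, had 986 and 2444. At day 10 the median of the list was 0.12 and at day 20 it was -0.050.

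**Figure D4:**
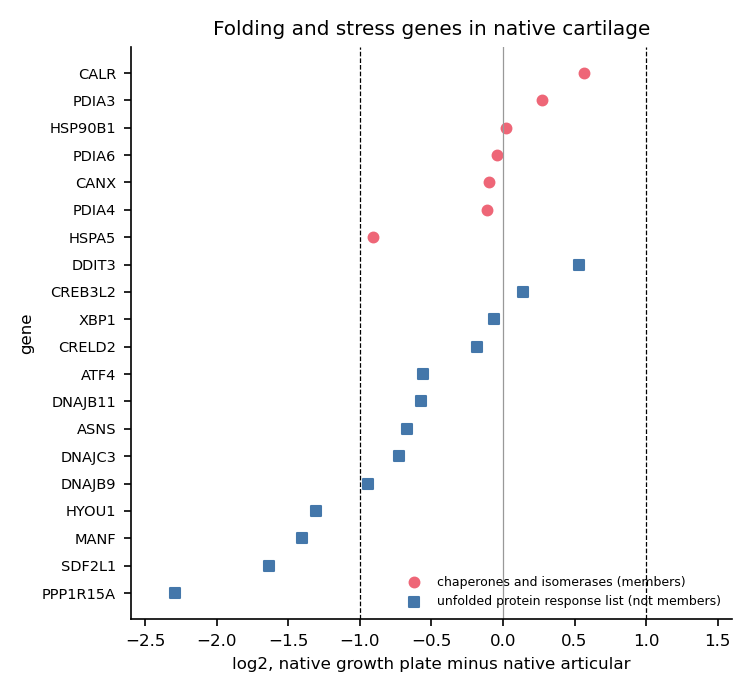
Log2 difference between native growth plate and native articular cartilage, 1 array each, for the 7 chaperones and isomerases (circles) and the 13 measured unfolded protein response genes (squares), with dashed lines at 2-fold. PPP1R15A (-2.29), SDF2L1 (-1.63), MANF (-1.41) and HYOU1 (-1.31) lie beyond the line, HSPA5 is at -0.91, and the other chaperones lie between -0.11 and 0.57.

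From native articular cartilage to day 10, the list's median was -0.83, with 5 genes at least 2-fold lower (9.56% of all genes). In growth plate it was 0.013, with 2 higher by 2-fold (7.41%) and 1 lower (6.86%). The difference between the tissues was not tested. In the limma fit 0 of the 13 were called for culture minus native, and 4 had a lower value at an unadjusted p under 0.05, where 19.3% of all genes passed in either direction. Among the member chaperones, HSPA5 had a native log2 difference of -0.91, and PDIA4, PDIA6, HSP90B1 and CANX had native log2 differences between -0.11 and 0.020. The native median of the list was -0.53 after quantile normalization and -0.93 after median centring, with 4 and 5 genes at least 2-fold lower. The part of that array's distance from the others in these values was not tested.

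Other ER folding enzymes, 16 measured of 32 listed, lay nearer to the collagen modifying members. Their median for day 20 minus day 10 was 0.32, with 0 called and 5 higher at an unadjusted p under 0.05 (14.6% of all genes in either direction). In growth plate cultures 3 were at least 2-fold higher at day 20 than at day 10 (6.65% of all genes). CRTAP, a partner of collagen prolyl 3-hydroxylase, had signals of 4669, 1786 and 5442 for growth plate and 4871, 2660.2 and 4963 for articular arrays. FKBP10, a prolyl isomerase of collagen, had 4813, 3333 and 7011 against 4394, 4045 and 6111, and ERO1A, the oxidase that recharges disulphide isomerases, had 1666, 421 and 946 against 1005, 287 and 394. As with PLOD1, the day 10 array was the lowest of its tissue for each of these genes.

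N-glycosylation genes, 11 measured of 12, had a median of -0.40 for culture minus native (-0.34 to -0.49 under the other scalings), with 0 called and 2 lower at an unadjusted p under 0.05 (19.3% of all genes in either direction). RPN1, a subunit of the oligosaccharyltransferase, had 6379, 3085 and 4174 in growth plate against 5621, 3694 and 4440.2. ER to Golgi transport genes outside the rule, 20 measured of 26, were level, with a median of 0.0089 for culture minus native and 0.082 for day 20 minus day 10 and 0 called in either. At an unadjusted p under 0.05 by limma, 3 were higher in culture, and 1 was higher and 3 lower at day 20 than at day 10, where 19.3% and 14.6% of all genes passed in either direction. PREB, which activates the COPII GTPase, had 197, 666 and 219 against 119, 515 and 329, highest at day 10 in both tissues as SEC61A1 was. Procollagen processing and crosslinking genes, 5 measured of 11, had a median of 0.51 for day 20 minus day 10, with 0 at an unadjusted p under 0.05.

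The collagen genes themselves, the main clients of the folding members, were set against the same step. Of 17 listed, 10 were measured, and their median for day 20 minus day 10 was 0.86, with 0 called and 5 higher at an unadjusted p under 0.05 (14.6% of all genes in either direction). At least 2-fold higher at day 20 were 5 in growth plate (6.65% of all genes) and 3 in articular cultures (5.75%). COL1A2 had signals of 432, 381 and 2343 for growth plate and 146, 585 and 838 for articular arrays, and COL5A1 had 4541, 2628 and 7754 against 4973, 4575 and 5535. COL2A1, the main cartilage collagen, had 1615, 1361 and 1603 against 2929, 1164 and 1689. P4HA2 differed more between day 10 and day 20 in growth plate than in articular cultures, as values of single arrays. So did COL1A2, COL5A1, COL6A2, COL6A3 and COL11A1. COL5A2 (0.94 and 1.43), COL5A3 (1.17 and 2.59) and COL2A1 (0.24 and 0.54) had the larger log2 difference in articular cultures. COL3A1 was nearly equal (1.654 and 1.596). COL10A1 was lower at day 20 in growth plate (-0.52) and under the floor in articular cultures. It was the 1 collagen gene called for growth plate minus articular (5.501, limma adjusted p = 0.019).

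**Figure D5:**
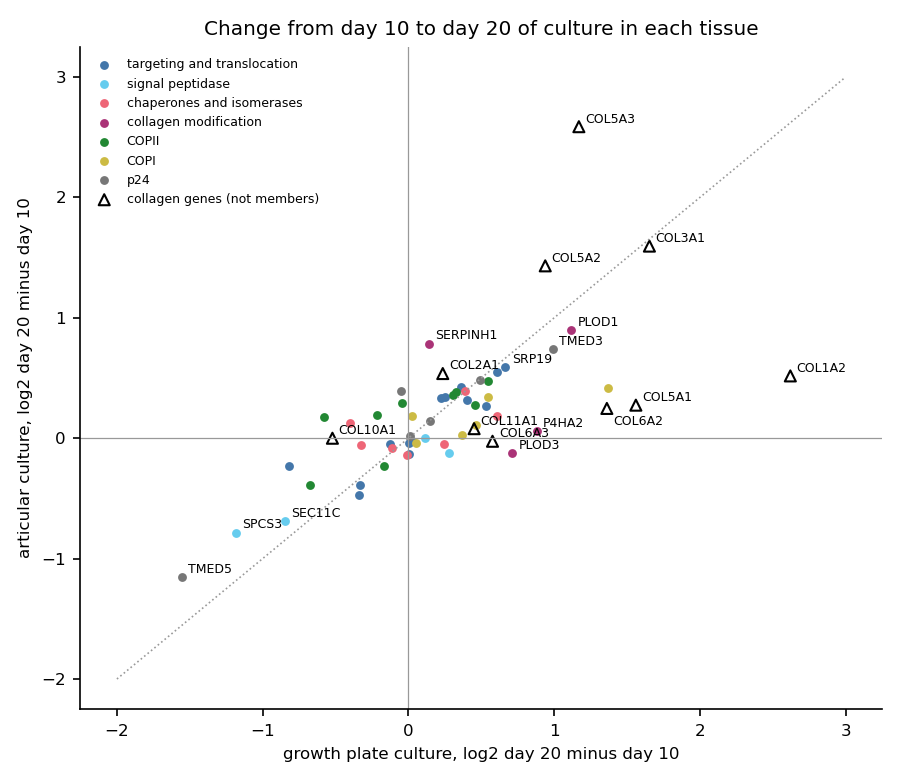
The log2 difference from day 10 to day 20 in articular cultures is plotted against that in growth plate cultures, for the 50 members (dots, coloured by role) and 10 collagen genes (triangles), with a dotted line where they are equal. PLOD1 (1.12 and 0.90) and TMED3 (0.99 and 0.74) lie at the upper right, TMED5 (-1.56 and -1.16) at the lower left, and P4HA2 (0.88 and 0.056) near the horizontal axis.

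Markers of other cell types were measured because cartilage samples and their cultures could hold them, and in bulk RNA a change in the number of cells of a type and in RNA per cell cannot be told apart. Chondrocyte markers, 6 measured of 13, had summed signals of 29763 to 39900, most of it ACAN and HAPLN1. The list's median for culture minus native was -0.43, with 0 of 6 called and 2 lower at an unadjusted p under 0.05. SOX9, the transcription factor that maintains chondrocytes, had signals of 175, 125 and 118 against 982, 81.0 and 76.8, high on the native articular array alone as HSPA5 and TMED4 were. COL2A1 was 2.52-fold lower at day 10 than in native articular cartilage. For that pair COMP and COL11A1 went the other way, with log2 differences of 0.86 and 0.19, and ACAN and HAPLN1 had -0.56 and -0.34. The part of these differences in the members' values was not tested. Fibroblast markers, 5 measured of 7 and of which COL1A2 and COL3A1 are also on the collagen list, had summed signals of 9694, 5120.4 and 21322 for growth plate and 5363, 11156 and 17966 for articular arrays, highest at day 20 in each tissue, the step in which the collagen modifying members had positive differences. The list's median for day 20 minus day 10 was 1.62. Its part in those values was not tested. For leukocyte markers 0 of 5 passed the filter, with summed signals of 50.3 to 102, and for endothelial markers 1 of 5 did, with 95.2 to 325.1 and the highest value in native articular cartilage. Summed signals were 256 to 636 for 2 erythroid, 29.9 to 119.7 for 2 adipocyte and 39.8 to 99.7 for 3 muscle markers. The osteoclast list summed to 5822 to 17860.0, nearly all of it CTSK, at 14768, 6548 and 7793 against 17802, 5803 and 8225, with ACP5 at 2.06 to 63.5. CTSK was highest in the native arrays, as HSPA5, PDIA4 and HSP90B1 were, and its part in them was not tested. Osteoblast markers, 3 measured of 6, had a median log2 difference of -0.13 for growth plate minus articular. Among these 3, IBSP alone was at least 2-fold apart between the tissues at each stage. Its signals were 10642, 14034 and 15675 against 53.2, 309 and 5958, while no member was 2-fold apart at every stage.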

How the data were processed

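Each sample was hybridized to 1 Affymetrix array, starting from 100 ng of total RNA per the labels' protocols. The deposited values are signal intensities on a linear scale, which the authors made with GCOS 1.4, as named in the submitters' processing notes. Its settings, with the target of the scaling, are not given in the sources used here. Trimmed mean signals lay between 400.09 and 400.11 on every array, so no further scaling was applied.

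Of 24123 probe sets, 124 controls were left out, and 10069 of the others had 1 symbol in the platform annotation. Signals under the 40th percentile (36.1) were raised to it before log2 was taken, so a difference that involves a lower signal is understated. A gene was represented by its probe set of highest mean log2 signal and kept if above the floor on at least 2 arrays.

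An additive model of tissue and stage was fitted to all genes with limma 3.58.1 in R 4.3.3, after reading files with the data.table package (version 1.17.8), with an intensity trend. The residual had 2 degrees of freedom and the prior 3.78. A call needed a Benjamini-Hochberg adjusted p under 0.05 and at least 2-fold. The script was tested on simulated data. The precision is limited by the number of arrays.

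Genes were named by rule. The collagen modifying members and HSPA5, HSP90B1, CALR and CANX were always named. So were the 4 members each way with the largest difference in each model comparison, up to 3 each way at least 2-fold apart in each pair of arrays, every member called, and members whose probe sets disagree. Other members were named to describe their role and were chosen after their values were seen. The members, the lists and the rule were chosen with earlier results of these data known.

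Alternatives were quantile normalization, median centring, floors at the 25th and 60th percentile, a pseudocount of 16 instead of a floor, dropping the filter or requiring all 6 arrays, averaging probe sets, no intensity trend, the 4 cultured arrays alone, and leaving out each array in turn with the filter applied again. A 1.5-fold limit and a comparison with genes of mean signal at least 1024 were added after seeing the data. Protein and promoter sequence features were planned and not analysed here.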

Additional observations from a re-analysis of the deposited data

Results flagged for a closer look

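For 3 of 50 members (6%) the cultured arrays lay on opposite sides of native tissue in the 2 tissues, at both days. Over all 5598 genes the share was 16.9%, so the members' count lay under the background. SEC11A, a catalytic subunit of signal peptidase, had log2 differences from native tissue of 0.081 and 0.36 for growth plate cultures and -0.67 and -0.79 for articular ones at day 10 and day 20. The articular mean minus the growth plate mean was -0.95. SPCS1, an accessory subunit of the same enzyme, had -0.28 and -0.16 for growth plate and 0.26 and 0.27 for articular cultures, a difference of 0.48. TMED7, a p24 adaptor, had 0.22 and 0.17 for growth plate and -0.95 and -0.56 for articular cultures, a difference of -0.95, and its second probe set did not share the articular value at day 10 (0.11). With 1 array per condition the difference between the tissues was not tested for any of them, and each tissue's values share 1 native array.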

How the results depend on the processing

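With 1 array per condition, nothing here measures the spread between animals or cultures. The counts of members at least 2-fold apart were small, so a change by 1 gene passes 1.5 times. After median centring, native growth plate against articular gave 1 higher and 7 lower, the day 10 tissue pair 0 higher, and articular day 10 against native 6 lower. Quantile normalization gave 2 lower between native tissues. A floor at the 25th percentile gave 2 higher at day 10 between tissues, 1 lower at day 20 between tissues and 1 higher at day 20 against day 10 in articular cultures. The pseudocount of 16 gave 2 and 1 for the first and last of these. With the mean of probe sets, growth plate day 10 against native gave 1 higher and day 20 against day 10 gave 1 lower in growth plate, 0 lower in articular cultures and 0 lower in both tissues. The 1.5-fold limit gave 2 higher and 3 lower at day 10 against native in both tissues, and 3 higher and 3 lower at day 20 against day 10. The 4 cultured arrays alone gave 2 members called for day 20 minus day 10. Leaving out each array in turn gave 0 to 5 members called for culture minus native and 0 to 2 for day 20 minus day 10. The members' median for growth plate minus articular, 0.0021, changed sign, to -0.089 after median centring and -0.0065 with the floor at the 25th percentile, and the native pair's went from 0.0079 to -0.25 after median centring, so neither has a direction. The alternative without SSRP1 gave no value because that gene was not among the members. The model compares stages within tissue, so no other pairing was fitted.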
